A study of Mus musculus with 22 samples.

Results

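Transcript levels of 8 genes for collagens of the beaded filament, network and FACIT classes were followed in RNA sequencing of mouse heart cells. FACIT stands for fibril-associated collagens with interrupted triple helices. The genes were chosen by name from a table of 23359 genes: Col6a1, Col6a2 and Col6a3 for collagen VI, Col8a1 and Col8a2 for collagen VIII, and Col12a1, Col14a1 and Col16a1 for the FACIT collagens XII, XIV and XVI. All 8 were listed. The rule that names them uses no measured value, but the members were chosen with earlier results of these data known. The 22 libraries were polyadenylated RNA of cells from male wild-type C57BL/6 mice aged 10 to 14 weeks. Cardiac fibroblasts gave 7 groups. The controls were sedentary mice (n = 3) and mice with sham surgery at day 3 (n = 2). TAC was sampled at day 3 (n = 3) and day 10 (n = 3), MI at day 5 (n = 2), and swimming at day 4 (n = 3) and day 10 (n = 3). Cardiomyocytes of sedentary mice formed the last group (n = 3). The labels give only the abbreviations: TAC was taken to mean transverse aortic constriction, a banding of the aorta that overloads the ventricle, and MI to mean myocardial infarction. The samples used here hold no sham group of day 5 or day 10, so MI and day 10 of TAC were set against sedentary fibroblasts. Since no label ties the replicates to separate animals, a p-value here reflects the spread between libraries, which may be technical.

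Collagen VI is built from the chains of Col6a1, Col6a2 and Col6a3, which join into tetramers and then into beaded microfilaments close to the cell surface. Collagen VIII is a short-chain collagen that forms hexagonal networks, best known from blood vessels and from Descemet's membrane of the cornea. Collagens XII, XIV and XVI do not form fibrils of their own, and XII and XIV lie along the surface of collagen I fibrils, where their large non-collagenous domains reach into the space between fibrils. Fibroblasts are the main makers of interstitial collagen in the heart.

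Expression was deposited as FPKM, which scales fragments to transcript length and to sequencing depth and so allows levels of different genes to be set side by side. Total FPKM per library ran from 85128 to 205139. No read counts were used here, and relative depth, estimated for 19 of the 22 libraries from the smallest steps between low values, differed by up to 3.55 times. The libraries differed in how expression depended on transcript length. The slope of log2(FPKM + 1) per doubling of length was 0.229 to 0.349 in the 7 sedentary, sham and MI libraries, between -0.346 and -0.0808 in the 9 libraries of TAC and of 4 days of swimming, and between -0.102 and 0.00730 after 10 days of swimming. This matters here because the transcripts of Col12a1 (11511 bases) and Col6a3 (10106 bases) are long, against 4100 to 6457 bases for the other 6 genes. Each comparison of TAC or swimming with a control crosses this difference in slope, whereas MI against sedentary does not. Each fold change was therefore computed also after each library's smooth trend on length and GC content was removed, and that value is given for the main comparisons and wherever it moved a call. Transcript GC content ran from 46.8% for Col8a1 and 48.3% for Col12a1 to 61.4% for Col16a1. Shorter transcripts moved too: after 4 days of swimming Col8a1 went from -0.90 to -0.23 and Col14a1 from -0.74 to -0.06. The 2 trends were removed together, so their parts were not told apart. Summed FPKM of 10 fibroblast markers was 1060 to 2582 in fibroblast libraries and 97.1 to 161 in cardiomyocytes, and that of 10 cardiomyocyte markers was 46.0 to 662 in fibroblast libraries and 12506 to 16246 in cardiomyocytes. Macrophage and monocyte markers summed to 504 to 1695 FPKM in fibroblast libraries, so these libraries held transcripts of leukocytes as well, and none of the 10 was at 0 in all libraries of a group. In bulk RNA, fewer cells of a type and less RNA per cell cannot be told apart.

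In sedentary fibroblasts the 8 genes spanned more than 2 orders of magnitude. Col6a1 (41.4 ± 5.57 FPKM, SD, n = 3) and Col6a2 (38.9 ± 6.03) were the most abundant, followed by Col8a1 (14.5 ± 3.41), Col6a3 (10.2 ± 1.42) and Col14a1 (3.90 ± 0.981). The remaining genes lay below 1 FPKM: Col16a1 at 0.649 ± 0.203, Col12a1 at 0.264 ± 0.0797 and Col8a2 at 0.0974 ± 0.00762. The order changed 5 days after MI, where Col8a1 came first at 71.4 ± 6.78 FPKM (n = 2), above Col6a1 (54.1 ± 14.4) and Col6a2 (54.1 ± 13.9). MI was the group with the highest mean for 6 of the 8 genes, and 10 days of TAC for Col6a1 and Col6a2. Cardiomyocytes had the lowest mean for all 8.

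**Figure D1:**
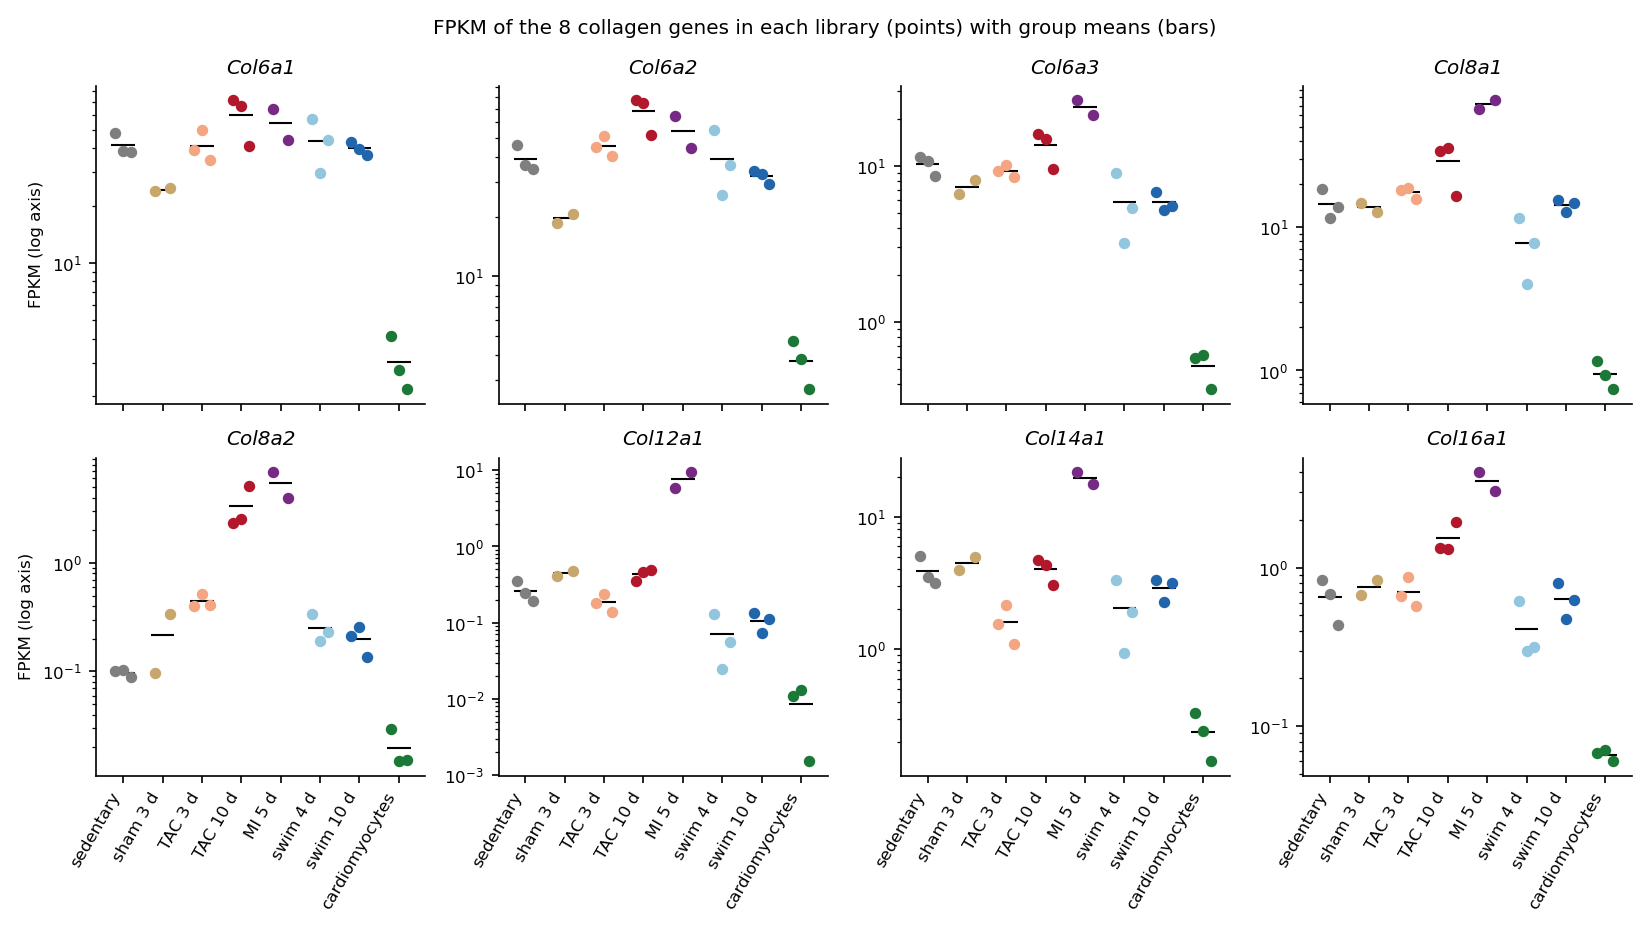
Each panel shows 1 gene, with FPKM on a log axis for every library (points) by group and group means (bars). Col8a2, Col12a1, Col14a1 and Col16a1 stand out in the 2 MI libraries, Col8a2 and Col16a1 also in the 3 libraries of 10 days of TAC, and cardiomyocytes are lowest throughout.

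The groups of each gene formed an order in which many neighbours overlapped. For Col6a1 the order was TAC day 10, MI, swimming day 4, sedentary, TAC day 3 and swimming day 10, each overlapping the next, with sham and then cardiomyocytes below and apart. Col6a2 ran likewise from TAC day 10 through MI, TAC day 3 and swimming day 4 to sedentary with overlaps, and swimming day 10, sham and cardiomyocytes followed without. For Col6a3, Col8a1, Col12a1, Col14a1 and Col16a1 the MI libraries were on top and apart from the next group. Below MI, Col6a3 overlapped from TAC day 10 through sedentary to TAC day 3, and then from sham to both swim groups. Col8a1 overlapped from TAC day 10 down to sham, with swimming day 4 apart below. Col12a1 fell into pairs that overlapped, sham with TAC day 10, sedentary with TAC day 3 and the swim groups with each other. Col14a1 overlapped throughout from sham down to TAC day 3. Col16a1 had TAC day 10 apart and then overlaps from sham to swimming day 4. For Col8a2, MI overlapped TAC day 10, TAC day 3 stood apart from both neighbours, and swimming day 4, sham and swimming day 10 overlapped. Both swim groups were above sedentary, whereas 1 of the 2 sham libraries fell within the sedentary range.

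Calls were made with limma on log2(FPKM + 1) over all genes at 1 FPKM or more in at least 2 libraries, at a Benjamini-Hochberg adjusted p under 0.05. All 8 genes passed this filter, but Col12a1 passed only through the MI libraries, and Col8a2 and Col16a1 only through MI and 10 days of TAC. Calls of these 3 genes in those groups are therefore in part set by the filter, although with no filter each of their calls between 2 groups remained. After MI 6 of the 8 genes were higher than in sedentary fibroblasts and none lower, where 8.93% of all genes tested were called higher and 2.34% lower. Among the 5 genes that passed the filter in other groups too, 3 were called. The median log2 fold change was 1.77 over the 8 genes and 0.10 over all genes. After 10 days of TAC 4 genes were higher and none lower than in sedentary fibroblasts, beside 38.8% of all genes higher and 27.0% lower, so a share of this size is not a result about these collagens (medians 0.55 and 0.12). After 3 days of TAC 2 genes were higher and 1 lower than in sham, beside 31.3% and 25.8% (medians 0.28 and 0.05). After 4 days of swimming none was higher and 3 were lower than in sedentary, beside 38.2% and 26.3% (medians -0.23 and 0.13), and after 10 days none was higher and 1 lower, beside 30.0% and 13.6% (medians -0.12 and 0.14). The MI, 10 day TAC and both swimming comparisons share the same 3 sedentary libraries, and the further comparisons given here use the same libraries again.

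Once the trend on length and GC was removed, the count after MI stayed at 6 higher and 0 lower. The other counts moved: to 7 higher and 0 lower after 10 days of TAC, 5 and 0 after 3 days of TAC, 1 and 0 after 4 days of swimming and 2 and 0 after 10 days of swimming. No gene was called lower than control in any of these 5 comparisons after the removal. The calls for swimming were then of Col12a1 at both times and of Col16a1 at 10 days, each below 1 FPKM in both groups. Col12a1 lay below sedentary there in FPKM (means of 0.0703 and 0.106 against 0.264). The trend was fitted over all genes and removed in full from such low ones too. How far the removal itself sets their calls was not tested. Scaling libraries to the same median moved the median of all genes by more than 0.1 in 3 comparisons, namely from 0.10 to -0.03 for MI against sedentary, from 0.09 to -0.01 for sham against sedentary and from 0.14 to 0.03 for 10 days of swimming.

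The authors' deposited table, with q under 0.05 as the threshold, gave the same 6 calls for MI against sedentary. For 10 days of TAC the authors' deposited table also called 4 genes higher, but with Col12a1 (q = 0.0251) in place of Col6a2 (q = 0.217). For 3 days of TAC the authors' deposited table left out Col6a1 (q = 0.193) and called Col12a1 lower (q = 0.0315). For 4 days of swimming the authors' deposited table called none of the 3 genes that limma called (q = 0.165 for Col6a3, 0.202 for Col8a1 and 0.131 for Col14a1), and called Col8a2 higher (q = 0.0492) and Col12a1 lower (q = 0.00132) instead. For 10 days of swimming the authors' deposited table called Col12a1 lower (q = 0.00367) and not Col6a3 (q = 0.0738).

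**Figure D2:**
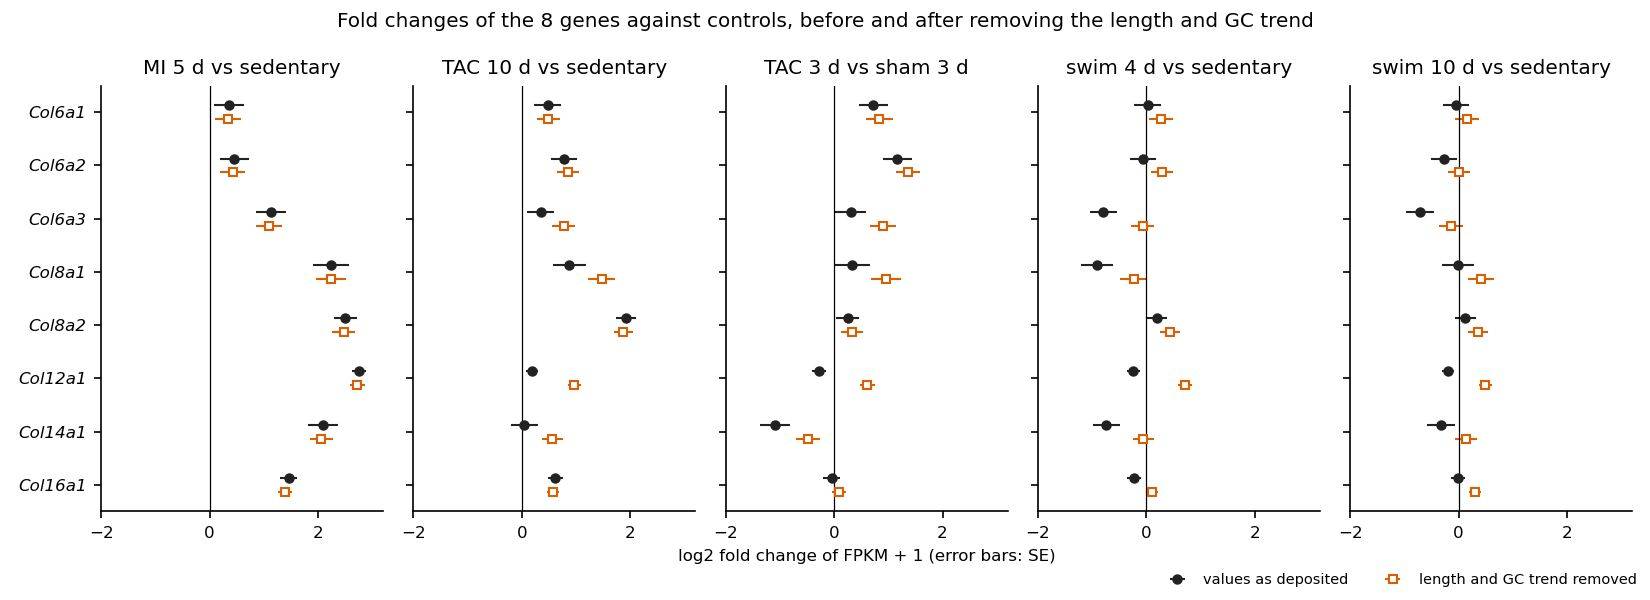
The 5 panels show the log2 fold change of FPKM + 1 of each gene against its control, as deposited (filled circles) and after the length and GC trend was removed (open squares), with bars for the SE. The pairs of points lie together for MI, whereas for TAC and swimming the squares lie to the right of the circles, furthest for Col6a3, Col8a1, Col12a1 and Col14a1. Only Col8a2 and Col16a1 at 10 days of TAC have the square slightly to the left.

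Col6a1 and Col6a2 lie on the same strand of chromosome 10 (mm10, minus strand, 76708792 to 76726044 and 76595756 to 76623404), and Col6a3 on chromosome 1 (minus strand, 90766860 to 90843971). The promoters of the first pair are shown because their transcripts moved together most closely of all pairs. The windows are the 250 bases before the listed start, from RefSeq on GRCm38.p6, at chr10:76726045-76726294 and chr10:76623405-76623654, both on the minus strand. Capitals mark matches on either strand to 5 short motifs: the GC box GGGCGG, the TATA box TATAAA, the AP-1 site TGANTCA, the Smad-type site CAGACA and the TEAD site GGAATG.
Col6a1: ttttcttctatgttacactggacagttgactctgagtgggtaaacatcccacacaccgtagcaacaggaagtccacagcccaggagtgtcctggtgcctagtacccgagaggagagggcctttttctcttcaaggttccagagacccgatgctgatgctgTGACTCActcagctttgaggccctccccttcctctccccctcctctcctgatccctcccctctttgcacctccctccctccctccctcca
Col6a2: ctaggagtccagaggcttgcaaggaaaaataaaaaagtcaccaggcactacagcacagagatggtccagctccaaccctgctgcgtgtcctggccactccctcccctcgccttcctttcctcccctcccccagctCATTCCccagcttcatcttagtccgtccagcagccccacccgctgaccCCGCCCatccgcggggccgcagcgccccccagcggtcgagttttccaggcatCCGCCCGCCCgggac
The Col6a1 window held 1 match, to the AP-1 motif, 90 bases before the start. The Col6a2 window held 3 GC boxes, of which the last 2 overlap, and 1 TEAD motif. RefSeq has 2 windows for Col6a2, and the one nearest the listed start was used. GENCODE M21 places the starts of Col6a1 and Col6a2 further upstream, at 76726168 and 76623630, so these matches lie within the genes as it bounds them. Of 32851 promoters of the same length, 6.75% held the AP-1 motif, 32.7% the GC box, 12.6% the TEAD motif, 17.1% the Smad-type motif and 12.4% the TATA box. The Col6a3 window (chr1:90843972-90844221, minus strand) held none of the 5. A match is a description of the letters and not of binding.

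Among the collagen VI chains, Col6a1 and Col6a2 were called higher at day 3 of TAC against sham. Against sedentary, Col6a2 was called higher at day 10 of TAC and Col6a3 after MI. Col6a2 gave 45.8, 36.3 and 34.6 FPKM in sedentary fibroblasts and 76.9, 74.5 and 51.6 after 10 days of TAC. Every TAC library was above every sedentary one, and Col6a2 rose by 0.77 log2 units (SE 0.239, adjusted p = 0.00927, or 0.85 with the length and GC trend removed), 1.74-fold in mean FPKM. The authors' deposited table does not call it (log2 fold change 0.74, q = 0.217). Col6a1 gave 47.8, 38.4 and 38.0 FPKM in sedentary and 71.1, 66.1 and 40.9 after 10 days of TAC, so the third TAC library lay among the sedentary ones. Its difference of 0.48 (SE 0.247) did not pass (adjusted p = 0.0967, or 0.49 with the trend removed at adjusted p = 0.0683), but did so at 0.72 without that library (adjusted p = 0.0211). Col6a3, whose chain carries the longest amino-terminal region of the trimer, gave 11.4, 10.7 and 8.64 FPKM in sedentary and 16.0, 14.9 and 9.51 after 10 days of TAC. The groups overlapped, and the difference of 0.35 (adjusted p = 0.24) passed the test only with the length and GC trend removed (0.77, adjusted p = 0.00668).

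The sham operation stood low for collagen VI. Sham libraries gave 23.7 and 24.7 FPKM of Col6a1 and 18.7 and 20.6 of Col6a2, below every other fibroblast library. Against sedentary these differences, -0.74 and -0.94, did not pass limma (adjusted p = 0.548 and 0.339). The other 6 genes differed by -0.43 (Col6a3) to 0.19 (Col12a1). None of the 8 genes was called in that comparison, where 0.0212% of all genes were called higher and 0% lower, and 647 genes had an unadjusted p under 0.05. The authors' deposited table called none of the 8 either. After 3 days of TAC Col6a1 gave 39.1, 49.7 and 34.6 FPKM and Col6a2 44.9, 51.1 and 40.4, all above both sham libraries. Both genes overlapped sedentary, however, with means of 41.1 FPKM against 41.4 for Col6a1 and 45.5 against 38.9 for Col6a2. Day 3 of TAC was not tested against sedentary. Col6a2 rose 2.32-fold over sham (log2 1.17, SE 0.267, adjusted p = 0.0014, or 1.36 with the trend removed) and Col6a1 1.70-fold (0.73, SE 0.276, adjusted p = 0.0323, or 0.83). The Col6a1 call was lost without either sham library (adjusted p = 0.125 and 0.0889), without the first or second TAC library (0.0553 and 0.107) and with no filter on low values (0.0579). Col6a3 differed from sham by 0.31 (adjusted p = 0.367), and by 0.91 with the trend removed (adjusted p = 0.00624).

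After MI the chains parted. Col6a3 gave 26.1 and 21.1 FPKM, above every other library of the study, and rose 2.31-fold over sedentary (log2 1.13, SE 0.285, adjusted p = 0.0146). This call was lost without either MI library (0.98 and 1.28, adjusted p = 0.125 and 0.0878). Col6a1 (64.3 and 43.9 FPKM) and Col6a2 (63.9 and 44.2) differed from sedentary by 0.36 and 0.45 (adjusted p = 0.473 and 0.327), and their libraries overlapped those of sedentary mice. Set against sham instead, the 3 chains were higher after MI by 1.10, 1.39 and 1.56 (adjusted p = 0.026, 0.00449 and 0.00301). The Col6a1 call there was lost without any of the 4 libraries (0.83 to 1.37, adjusted p from 0.0518 to 0.214), and that of Col6a2 without the first MI library (1.13, adjusted p = 0.0638).

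Swimming left Col6a1 and Col6a2 near sedentary levels, while Col6a3 was listed lower. Col6a1 gave 56.6, 29.5 and 44.2 FPKM after 4 days and 43.1, 39.7 and 36.9 after 10 days, and none of the 4 differences of Col6a1 and Col6a2 passed (-0.27 to 0.03, adjusted p from 0.387 to 0.931). Col6a3 gave 8.99, 3.21 and 5.38 FPKM after 4 days, the first within the sedentary range, and 6.82, 5.24 and 5.52 after 10 days, all below sedentary. It fell by 0.79 (SE 0.255, adjusted p = 0.0119) and 0.71 (SE 0.255, adjusted p = 0.0321). With the length and GC trend removed the differences were -0.07 and -0.14 (adjusted p = 0.808 and 0.653). The 4 day call was also lost without the second swim library (-0.48, adjusted p = 0.089), and the 10 day call without the first or second sedentary library (-0.64 and -0.68) or the second or the third swim library (-0.64 and -0.68), at adjusted p from 0.0716 to 0.107.

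Col8a1 lies on chromosome 16 (mm10, minus strand, 57624256 to 57754737) and Col8a2 on chromosome 4 (plus strand, 126286794 to 126314330). Their promoters are shown because the ratio of these collagen VIII chains spanned the widest range of the 4 ratios between chains computed here. The windows are chr16:57754738-57754987 (minus strand) and chr4:126286544-126286793 (plus strand), with capitals for the same 5 motifs.
Col8a1: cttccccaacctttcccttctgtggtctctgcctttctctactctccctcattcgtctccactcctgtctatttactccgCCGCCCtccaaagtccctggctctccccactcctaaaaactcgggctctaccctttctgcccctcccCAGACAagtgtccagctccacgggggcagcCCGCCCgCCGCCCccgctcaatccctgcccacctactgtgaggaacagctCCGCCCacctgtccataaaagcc
Col8a2: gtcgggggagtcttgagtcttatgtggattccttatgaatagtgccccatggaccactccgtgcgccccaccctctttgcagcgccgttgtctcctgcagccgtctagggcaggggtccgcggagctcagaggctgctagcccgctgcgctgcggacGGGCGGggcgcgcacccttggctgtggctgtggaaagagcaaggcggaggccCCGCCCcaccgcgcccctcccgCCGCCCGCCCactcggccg
Each window held 4 GC boxes, and the last 2 of Col8a2 overlap. Col8a1 also held a Smad-type motif 103 bases before the start. GC content was 60.8% in the Col8a1 window and 70.0% in that of Col8a2, against a median of 52.4% over all promoter windows.

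Col8a1 was the member with the largest gain in FPKM after MI. Sedentary libraries gave 18.3, 11.6 and 13.7 FPKM and the MI libraries 66.6 and 76.2, far above any other library. The difference of 2.24 (SE 0.333, adjusted p = 0.00019, or 2.23 with the trend removed) was a 4.91-fold change. After 10 days of TAC Col8a1 gave 33.9, 35.4 and 16.5 FPKM, the third library among the sedentary ones. It rose by 0.88 (SE 0.298, adjusted p = 0.0159), and by 1.47 with the length and GC trend removed (adjusted p = 0.000145). The call was lost without the second sedentary library (0.74, adjusted p = 0.0598) and without the first or second TAC library (0.72 and 0.69, adjusted p = 0.0689 and 0.0774). After 3 days of TAC it gave 18.0, 18.6 and 15.8 FPKM beside 14.7 and 12.6 in sham (0.33, adjusted p = 0.409, and 0.95 with the trend removed, adjusted p = 0.0107).

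After 4 days of swimming Col8a1 gave 11.5, 3.99 and 7.77 FPKM, all below the lowest sedentary value. Col8a1 fell by 0.90 (SE 0.298, adjusted p = 0.0137), but the call was lost without the first sedentary library (-0.74, adjusted p = 0.0691), without the second swim library (-0.55, adjusted p = 0.103) and with the length and GC trend removed (-0.23, adjusted p = 0.436). After 10 days of swimming Col8a1 gave 15.3, 12.7 and 14.8 FPKM, within the sedentary range (-0.01, adjusted p = 0.988, or 0.41 with the trend removed at adjusted p = 0.211).

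Col8a2 had the lowest level at rest and the steepest fold change. It gave 0.101, 0.102 and 0.0887 FPKM in sedentary fibroblasts and 0.0972 and 0.340 in sham. After 3 days of TAC it gave 0.397, 0.517 and 0.414 FPKM, after 10 days 2.32, 2.55 and 5.16, and after MI 6.82 and 3.96. The 10 day TAC and MI libraries were all above every other library, and the 3 day TAC libraries above every control. The level at day 10 of TAC was 34.3-fold that of sedentary in mean FPKM (log2(FPKM + 1) difference 1.93, SE 0.187, adjusted p = 1.23e-06, or 1.87 with the trend removed), and after MI 55.4-fold (2.51, SE 0.209, adjusted p = 2.47e-07, or 2.47). The added 1 compresses changes of so low a gene: the authors' deposited table gives log2 fold changes of 4.92 and 5.82 for the same comparisons, with q listed as 0. The differences at 3 days of TAC (0.25, adjusted p = 0.318) and after 4 days of swimming (0.19, adjusted p = 0.386; 0.337, 0.192 and 0.229 FPKM) did not pass. At 10 days of swimming Col8a2 gave 0.212, 0.255 and 0.136 FPKM (0.13, adjusted p = 0.603). All 6 swim libraries were above all 3 sedentary ones, and with an added 0.1 in place of 1 the 4 day difference passed (0.82, adjusted p = 0.0393).

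Col8a2 was also the member with the clearest change between time points. From 3 to 10 days of TAC it rose 7.56-fold (1.53, SE 0.187, adjusted p = 9.73e-05, or 1.32 with the trend removed). Across that interval 3 of the 8 genes were called higher and none lower, beside 4.42% of all genes higher and 2.18% lower (medians 0.56 and -0.02). Of the called genes, Col8a2 and Col16a1 passed the filter only through MI and 10 days of TAC, and only Col14a1 passed through other groups too. The 5 genes not called differed by 0.28 (Col12a1), 0.46 (Col6a3), 0.50 (Col6a1), 0.55 (Col6a2) and 0.61 (Col8a1), at adjusted p from 0.162 to 0.300, although the authors' deposited table calls Col12a1 higher (q = 0.000581). The other genes called were Col14a1 (0.96, SE 0.250, adjusted p = 0.0271) and Col16a1 (0.57, SE 0.136, adjusted p = 0.0171), and both calls were fragile. That of Col14a1 was lost without the first or the third 3 day library or the first or second 10 day library (0.82 to 0.96, adjusted p from 0.0919 to 0.11), and that of Col16a1 without the first or the third 3 day library or the third 10 day library (0.46 to 0.55, adjusted p from 0.0722 to 0.076) and with the length and GC trend removed (0.28, adjusted p = 0.143). From 4 to 10 days of swimming none was called, beside 0.0106% of genes higher and 0.308% lower, and 2251 genes had an unadjusted p under 0.05; the authors' deposited table called none of the 8. The differences there ran from -0.21 for Col6a2 to 0.90 for Col8a1 (adjusted p from 0.145 to 0.862). The difference between these intervals, swimming minus TAC, was -1.59 for Col8a2 (SE 0.264, adjusted p = 0.00325, with 6.16% of all genes called). It did not pass for the other 7 genes (adjusted p from 0.157 to 0.675). This difference was not computed without the filter, so its dependence on the filter is not known.

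The FACIT collagens XII, XIV and XVI shared a peak after MI. Col12a1 (chromosome 9, minus strand, 79598991 to 79718678) gave 0.351, 0.246 and 0.195 FPKM in sedentary fibroblasts and 5.94 and 9.39 after MI. The next highest library, the third of 10 days of TAC, gave 0.497. The MI difference was 2.75 (SE 0.128, adjusted p = 6.61e-10, or 2.72 with the trend removed), 29.1-fold in mean FPKM. With only 1 MI library the gene fell below the filter and was not tested. Col14a1 (chromosome 15, plus strand, 55307750 to 55520803) gave 5.02, 3.53 and 3.16 FPKM in sedentary and 21.6 and 17.8 after MI, again far above the rest. It rose 5.04-fold (2.09, SE 0.279, adjusted p = 5.85e-05, or 2.06). Col16a1 (chromosome 4, plus strand, 130047840 to 130099277) gave 0.835, 0.679 and 0.432 FPKM in sedentary and 3.99 and 3.05 after MI. It rose 5.43-fold (1.45, SE 0.152, adjusted p = 3.43e-06, or 1.39). All 8 collagens were higher at day 5 of MI than at day 3 of sham (median 1.74), beside 6.32% of all genes higher and 3.56% lower. Col12a1 was higher by 2.56, Col8a2 by 2.36, Col8a1 by 2.30, Col14a1 by 1.91 and Col16a1 by 1.36 (adjusted p of 0.000442 or lower). Of these, Col12a1 passed the filter only through MI, and Col8a2 and Col16a1 only through MI and 10 days of TAC. The annotation places genes on the opposite strand within Col12a1 and Col14a1 and 1 on the same strand within Col6a3, and whether strand was used in the counting is not given in the sources used here, so reads of these genes could be mixed.

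At day 10 of TAC the FACIT genes differed among themselves. Col16a1 gave 1.34, 1.32 and 1.93 FPKM, all above sedentary, and rose 2.36-fold (0.62, SE 0.136, adjusted p = 0.000812, or 0.57 with the trend removed). Col14a1 gave 4.74, 4.35 and 3.06 FPKM, over nearly the sedentary range (0.04, adjusted p = 0.882, or 0.56 with the trend removed, adjusted p = 0.023). Col12a1 gave 0.355, 0.463 and 0.497 FPKM, each just above the highest sedentary value (0.19, adjusted p = 0.158), and passed with the trend removed (0.97, adjusted p = 1.58e-05).

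At 3 days of TAC Col14a1 moved against the other called genes. It gave 1.55, 2.14 and 1.10 FPKM beside 3.98 and 4.99 in sham, with no overlap, and fell by 1.09 (SE 0.279, adjusted p = 0.00322), so that sham was 2.81-fold higher. With the length and GC trend removed the difference was -0.48 (adjusted p = 0.0835). Col16a1 did not pass (0.662, 0.876 and 0.573 FPKM beside 0.675 and 0.834 in sham, adjusted p = 0.815).

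The direction of Col12a1 under TAC and swimming depended on the correction. It gave 0.179, 0.237 and 0.137 FPKM after 3 days of TAC, below sham (0.410 and 0.478), 0.131, 0.0247 and 0.0554 after 4 days of swimming and 0.132, 0.0728 and 0.113 after 10 days, below sedentary. Every such library was below every control library, yet on log2(FPKM + 1) the differences of -0.29, -0.24 and -0.19 did not pass (adjusted p = 0.0655, 0.0765 and 0.188). With an added 0.1 they were -0.95, -1.12 and -0.81 and passed (adjusted p = 0.0179, 0.00248 and 0.0299). Removing the length and GC trend gave 0.61, 0.71 and 0.49 which passed in the opposite direction (adjusted p = 0.00235, 0.000225 and 0.00657). No direction is therefore given for Col12a1 in these 3 comparisons. After 4 days of swimming Col14a1 gave 3.34, 0.934 and 1.89 FPKM, overlapping sedentary, and fell by 0.74 (SE 0.250, adjusted p = 0.0154). The call was lost without the first sedentary library (-0.58, adjusted p = 0.081), without the second swim library (-0.45, adjusted p = 0.113) and with the trend removed (-0.06, adjusted p = 0.823). At 10 days Col14a1 gave 3.30, 2.25 and 3.15 FPKM (-0.32, adjusted p = 0.312). Col16a1 gave 0.617, 0.296 and 0.315 FPKM at 4 days (-0.23, adjusted p = 0.153) and 0.801, 0.473 and 0.625 at 10 days (-0.01, adjusted p = 0.956), overlapping sedentary at both times. With the trend removed its 10 day difference was 0.30 and just passed (adjusted p = 0.0499).

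Disease and exercise were also set against each other directly, at 10 days and at 3 and 4 days, where TAC and swim libraries have length slopes of closer size. After 10 days of swimming 6 of the 8 collagens were lower than after 10 days of TAC and none was higher. This stood beside 10.9% of all genes higher and 13.2% lower (medians -0.76 and 0.02). Of these 6, Col8a2 and Col16a1 passed the filter only through MI and 10 days of TAC, and Col12a1 only through MI. Removing the length and GC trend left 5 lower. Col8a2 differed most, with TAC 16.6-fold higher (-1.80, SE 0.187, adjusted p = 6.64e-06, or -1.52 with the trend removed). Col6a3 (-1.05, adjusted p = 0.00762), Col6a2 (-1.04, adjusted p = 0.00567), Col8a1 (-0.89, adjusted p = 0.04), Col16a1 (-0.63, adjusted p = 0.00364) and Col12a1 (-0.38, adjusted p = 0.0252) were also lower after swimming, and with the trend removed their differences were -0.91, -0.85, -1.06, -0.27 and -0.48. The Col8a1 call was lost without the first or second TAC library or any one of the swim libraries (-0.93 to -0.70, adjusted p from 0.0855 to 0.134) and with no filter on low values (adjusted p = 0.0775). That of Col12a1 was lost without 5 of the 6 libraries in turn (-0.40 to -0.35, adjusted p from 0.0557 to 0.0921), and that of Col16a1 with the trend removed (-0.27, adjusted p = 0.101). Col6a1 and Col14a1 did not pass (-0.53 and -0.37, adjusted p = 0.122 and 0.276).

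After 4 days of swimming only Col8a1 was called against 3 days of TAC, lower after swimming, beside 5.20% of all genes higher and 3.66% lower (medians -0.24 and -0.00). It fell by 1.17 (SE 0.298, adjusted p = 0.0197, or 1.10 with the trend removed at adjusted p = 0.00964). The call was lost without the first or second TAC library (-1.15 and -1.12, adjusted p = 0.0806 and 0.0633), without the second swim library (-0.81, adjusted p = 0.101) and in a fit of the 2 groups alone (adjusted p = 0.0746). Without the first swim library Col6a3 was called lower too (-0.99, adjusted p = 0.0186). With all libraries Col6a3 differed by -0.67, Col6a2 and Col16a1 by -0.28 each, Col8a2 by -0.20, Col12a1 by -0.15, Col6a1 by 0.04 and Col14a1 by 0.18 (adjusted p from 0.122 to 0.959). The authors' deposited table calls Col12a1 lower as well (q = 0.00709).

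MI and 10 days of TAC differed in 6 of the 8 genes, all higher after MI, beside 27.1% of all genes higher and 30.1% lower (medians 0.81 and -0.01). Of these 6, Col12a1 passed the filter only through MI, and Col8a2 and Col16a1 only through the groups compared here. Removing the length and GC trend left 5 higher. Col12a1 was higher by 2.56 (SE 0.128, adjusted p = 2.13e-09) and Col14a1 by 2.04 (SE 0.279, adjusted p = 2.6e-05), or by 1.75 and 1.5 with the length and GC trend removed (adjusted p = 1.52e-06 and 0.000146). Col16a1 was higher by 0.84 (SE 0.152, adjusted p = 0.000245, or 0.82). Col8a1 was higher by 1.36 (SE 0.333, adjusted p = 0.0025, or 0.76 with the trend removed). Col8a2 was higher by 0.58 (SE 0.209, adjusted p = 0.0255) although its libraries overlapped (0.59 with the trend removed). That call was lost without the first or second TAC library (0.41 and 0.46, adjusted p = 0.109 and 0.0904), without the first MI library (0.25, adjusted p = 0.397), with libraries scaled to the same median (0.51, adjusted p = 0.0799), with an added 0.1 (0.71, adjusted p = 0.108) and in a fit of the 2 groups alone (adjusted p = 0.135). Col6a3 was higher by 0.79 (SE 0.285, adjusted p = 0.026). Its call was lost without the third TAC library or either MI library (0.57 to 0.93, adjusted p from 0.0525 to 0.165) and with the trend removed (0.32, adjusted p = 0.297). The authors' deposited table does not call it either (q = 0.103). Col6a1 and Col6a2 did not pass (-0.12 and -0.32, adjusted p = 0.728 and 0.312).

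Markers of other cells moved with some of these groups. Summed FPKM of 9 pericyte and smooth muscle markers was 37.0 to 48.9 in sedentary libraries, 58.8 to 67.5 after MI and 57.7 to 74.5 at day 10 of TAC, and 24.4 to 34.9 after 4 days of swimming. That of 10 endothelial markers was 54.8 to 78.8 in sedentary, 41.7 to 50.0 after MI, 69.3 to 140 after 10 days of TAC and 23.3 to 30.9 after 4 days of swimming. Macrophage and monocyte markers summed to 504 to 708 in sedentary and 936 to 957 after MI. They summed to 1136 to 1517 after 4 days of swimming and 656 to 1089 at day 10 of TAC. None of these sums was scaled to total FPKM, which was 85128 to 119382 in sedentary libraries and 197221 to 205139 after 4 days of swimming. Of the 10 endothelial markers 1 was called higher and 8 lower after 4 days of swimming, beside 38.2% and 26.3% of all genes. With the trend removed these were 0 and 7. At day 10 of TAC 3 were higher and 2 lower, beside 38.8% and 27.0%, and none was called after MI. Of 8 pericyte and smooth muscle markers tested, 4 were higher after MI and none lower, beside 8.93% and 2.34%. At day 10 of TAC 4 were higher and 2 lower, and after 4 days of swimming 1 and 5, or 0 and 2 with the trend removed. Of the 10 macrophage and monocyte markers 2 were called higher and 1 lower after 4 days of swimming, beside 38.2% and 26.3%. The same counts at day 10 of TAC stood beside 38.8% and 27.0%, and none was called after MI. The 10 cardiomyocyte markers summed to 46.0 to 288 in sedentary and 153 to 662 at day 10 of TAC. There 5 of the 8 tested were called higher (median 1.27), beside 38.8% of all genes, or none with the length and GC trend removed (0.71). No marker of these 4 lists was at 0 in all libraries of a group. The 10 fibroblast markers summed to 1180 to 1411 in sedentary, 2360 to 2582 after MI and 1113 to 1454 after 10 days of TAC. That list holds Col1a1, Col1a2 and Col3a1, and the other 7 markers summed to 1083 to 1364 in sedentary, 806 to 1147 after MI and 673 to 1126 after 10 days of TAC. Of all 10 fibroblast markers 4 were called higher after MI and 1 lower, beside 8.93% and 2.34% of all genes. Those higher were Col1a1, Col1a2, Col3a1 and a further marker, and Dcn was lower (-1.17, adjusted p = 0.0226). The part of these cells in the levels of the 8 collagens was not tested.

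The 3 chains of collagen VI and the 2 of collagen VIII did not keep fixed ratios. Over the 19 fibroblast libraries the FPKM ratio of Col6a2 to Col6a1 stayed between 0.787 and 1.26. That of Col6a3 to Col6a1 ran from 0.109 to 0.480. It was 0.227 to 0.278 in sedentary, 0.225 to 0.233 after 10 days of TAC and 0.406 and 0.480 after MI, but only 0.109 to 0.159 at day 4 and 0.132 to 0.158 at day 10 of swimming, so the MI libraries were above and the swim libraries below all other fibroblast libraries. The ratio of Col8a2 to Col8a1 ran from 0.00554 to 0.313, a 56.6-fold span. It was 0.00554 to 0.00882 in sedentary, 0.0221 to 0.0278 after 3 days of TAC, 0.0685, 0.0719 and 0.313 after 10 days of TAC and 0.102 and 0.0520 after MI. Col8a1 remained the more abundant of the pair in all libraries, by the smallest margin in the third library of 10 days of TAC. Among the FACIT genes, the ratio of Col12a1 to Col14a1 was 0.0615 to 0.0700 in sedentary, 0.276 and 0.528 after MI and 0.0264 to 0.0391 after 4 days of swimming. It was 0.111 to 0.125 after 3 days of TAC and 0.0748 to 0.163 after 10 days. These transcripts differ in length (11511 and 6457 bases), so TAC and swimming against sedentary cross the difference in length slope here too. The ratio was not computed with the trend removed.

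**Figure D3:**
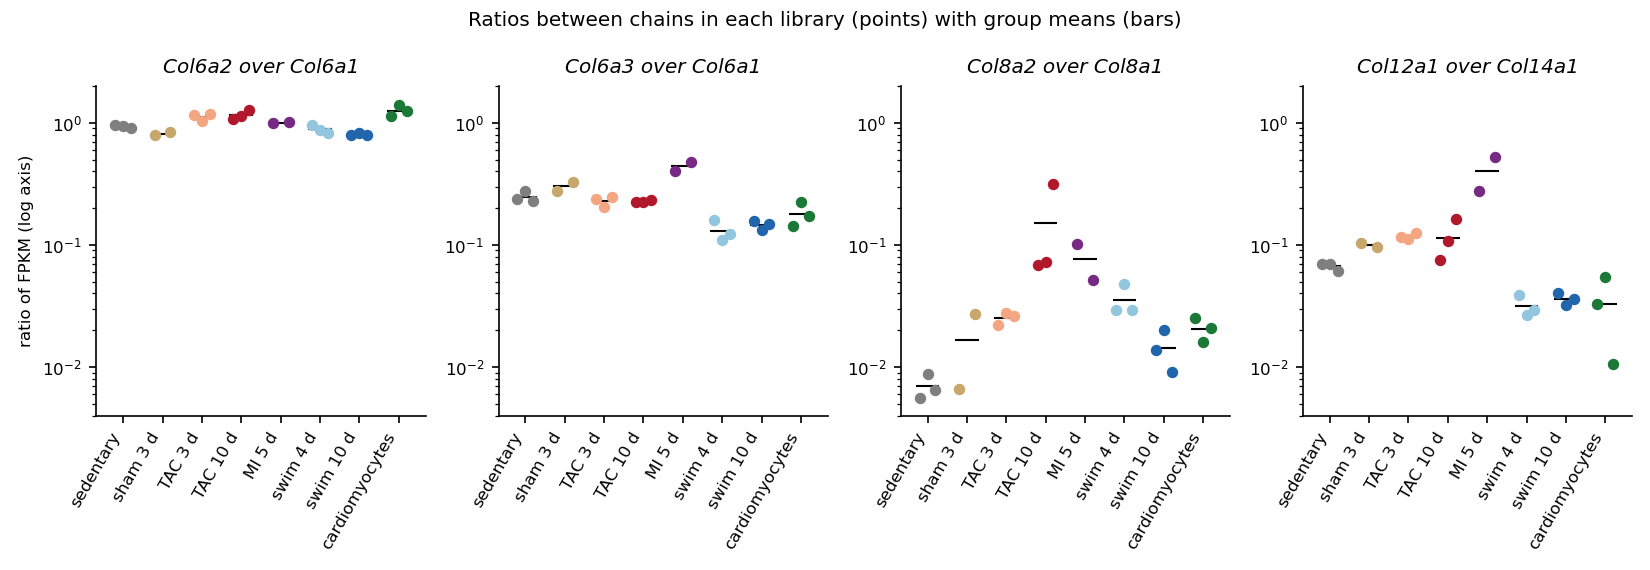
Each panel shows the ratio of FPKM of 2 chains on a log axis for every library (points) by group with group means (bars). Col6a2 to Col6a1 lies near 1 in every group, whereas Col8a2 to Col8a1 rises from 0.00554 in a sedentary library to 0.313 in a library of 10 days of TAC.

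The Col6a3 to Col6a1 ratio, of a transcript of 10106 bases to one of 4100, was also set beside the length slope of each library. The libraries with a slope of 0.229 or more had ratios of 0.227 to 0.480, and the swim libraries, with slopes of 0.00730 or less, had ratios of 0.109 to 0.159. TAC libraries did not follow this order: with slopes from -0.244 to -0.0808 their ratios were 0.204 to 0.245, close to sedentary. At slopes like those of sedentary libraries, the MI libraries had higher ratios than any sedentary library.

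**Figure D4:**
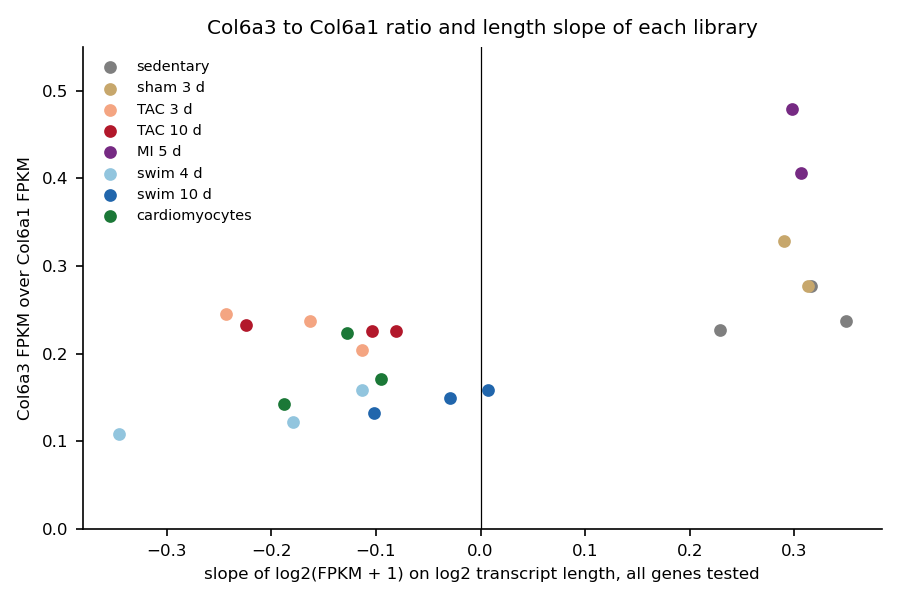
The Col6a3 to Col6a1 FPKM ratio (vertical axis) is plotted against the slope of log2(FPKM + 1) on log2 transcript length (horizontal axis) for each of the 22 libraries, coloured by group. The 2 MI libraries lie at the top right at 0.406 and 0.480, and swim and TAC libraries separate in ratio, 0.109 to 0.159 against 0.204 to 0.245, at slopes of 0.00730 or less.

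Likeness between the genes was described by Pearson r of log2(FPKM + 1) over the 19 fibroblast libraries, which share groups and the length trend. Col6a1 and Col6a2 had r = 0.94 (0.93 with the length and GC trend removed, and 0.94 over the 17 libraries other than MI). Col6a3 had r = 0.92 with Col8a1 (0.85 without MI), 0.70 with Col6a2 and 0.64 with Col6a1, its partners in the trimer, and Col8a2 was nearest to Col16a1 (0.92, and 0.87 without MI). Col8a1 and Col8a2 had r = 0.76, and 0.54 without MI. Col12a1 and Col14a1 had r = 0.89, and 0.71 without MI. The lowest of all pairs was Col6a1 with Col12a1, at 0.26.

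Among 2899 genes with a mean of at least 5 FPKM, the pattern most like Col6a1 and Col6a2 outside collagen VI was that of Col15a1, a basement membrane zone collagen (r = 0.821 and 0.881). Col6a2 was followed by Eln, the gene of elastin (0.823), and Col6a1 by Ptgfrn (0.790). Col6a3 was most like Adamts2, a protease that trims the amino end of procollagens (0.938), Fbn1, the gene of fibrillin-1 (0.933), and Col5a1 (0.929). Col8a1 was most like Fstl1 (0.938), Adamts2 (0.933) and Col5a2 (0.918). Col8a2 was most like Tgfb3, a transforming growth factor beta ligand (0.962), the secreted Wnt-binding protein gene Sfrp2 (0.932) and Ltbp2 (0.927). Col12a1 was most like Col5a2 (0.927), Sfrp1 (0.923) and Fn1, the gene of fibronectin (0.918). Col14a1 was most like Aspn, which encodes the small leucine-rich protein asporin (0.973), Fndc1 (0.944) and Bmp1, the procollagen C-proteinase (0.943). Col16a1 was most like Postn, the gene of periostin (0.944), Adamts2 (0.943) and Col5a2 (0.939).

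Other genes of collagen biology give the setting. Their counts stand beside the shares of all genes called. For MI 8.93% were higher and 2.34% lower, for day 10 of TAC 38.8% and 27.0%, and for day 3 of TAC 31.3% and 25.8%. After 4 days of swimming 38.2% were higher and 26.3% lower, and after 10 days 30.0% and 13.6%. Of 11 fibrillar collagen genes, 7 were expressed enough to be tested. After MI 6 were higher and none lower than in sedentary (median log2 fold change 3.61), led by Col1a1 at 4.59 (598.7 FPKM against 24.6) and Col3a1 at 4.23. At day 10 of TAC 6 were higher (median 1.75), with Col1a1 at 2.82, and after 3 days of TAC 4 were higher than in sham (0.78), with Col1a1 at 2.07. None of the 7 was higher after swimming: 2 were lower after 4 days (median -0.35) and 4 after 10 days (-0.76), among them Col3a1 at -0.98. With the length and GC trend removed the counts were 6, 7 and 6 higher for MI and the TAC time points, while 3 were higher and none lower after 4 days of swimming (0.06) and none was called after 10 days (-0.28).

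Of 19 genes for synthesis and processing of collagen, 17 were tested. After MI 12 were higher and 2 lower (median 0.97), among them Plod2, a lysyl hydroxylase (2.49), and Serpinh1, the collagen chaperone HSP47 (1.74). At day 10 of TAC 10 were higher and 3 lower (0.52), beside 38.8% and 27.0% of all genes. After 3 days of TAC 9 were higher and 1 lower (0.47), beside 31.3% and 25.8%. After 4 days of swimming 9 were higher and 1 lower (0.50), beside 38.2% and 26.3%. After 10 days of swimming 7 were higher and 0 lower (0.23), beside 30.0% and 13.6%. Serpinh1 was higher by 1.92, 2.40, 1.52 and 0.75 in these 4 comparisons. The prolyl isomerase gene Ppib was higher by 1.85 after 4 days and 1.40 after 10 days of swimming. The medians of this list kept their sign with the trend removed (0.33 to 0.95) and with libraries scaled to the same median (0.12 to 0.83).

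Of 19 genes for partners and receptors of these collagens, 17 were tested. After MI 8 were higher and 2 lower (median 0.56), among them Fn1 (4.12) and Tnc, the gene of tenascin-C (3.88). At day 10 of TAC 5 were higher and 8 lower (-0.25), beside 38.8% of all genes higher and 27.0% lower. Among them Fmod, the gene of fibromodulin (2.82), and Comp (2.15) were higher and the collagen receptor gene Ddr2 was lower (-1.83). After 3 days of TAC 3 were higher and 6 lower (-0.49), beside 31.3% and 25.8% of all genes. After 4 days of swimming 1 was higher and 9 lower (-0.37), beside 38.2% and 26.3%, and after 10 days 2 and 5 (-0.19), beside 30.0% and 13.6%. With the length and GC trend removed these 4 medians were 0.23, -0.06, 0.10 and 0.19, so the direction of the list turned in all but the 3 day TAC comparison. Of 6 genes for breakdown and uptake, 3 were higher and 1 lower after MI (0.49), with Mmp14 at 1.73 and Mmp13 at -1.92, and 1 was higher and 2 lower after 10 days of TAC (0.06, or -0.11 with the trend removed), with Mmp13 at -3.24. Of 10 further chains of the same collagen classes 2 were tested, and the highest values in any library were 2.46 FPKM for Col6a6 and 2.26 for Col9a2, with the other 8 at 0.140 or less.

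Sedentary cardiomyocytes and fibroblasts were compared last, in a fit of all 22 libraries and 10371 genes. In it 7 of the 8 collagens were lower in cardiomyocytes and none higher, beside 38.7% of all genes higher and 38.6% lower (medians -2.42 and -0.05). Col6a1 gave 4.15, 2.76 and 2.18 FPKM in cardiomyocytes, 13.7-fold below fibroblasts (-3.42). Col6a2 gave 4.75, 3.84 and 2.70 FPKM, 10.3-fold below (-3.08), Col6a3 0.590, 0.616 and 0.373, 19.4-fold below (-2.87), and Col8a1 1.17, 0.935 and 0.740, 15.3-fold below (-2.98). For these 4 genes adjusted p was 9.05e-09 or lower, and with the length and GC trend removed the differences were -3.14, -2.76, -2.43 and -2.46. Col14a1 was 16.4-fold lower (-1.97, adjusted p = 2.48e-07, or -1.52 with the trend removed). The cardiomyocyte values of all 8 genes were below every sedentary fibroblast value. Col12a1 and Col16a1 were lower by -0.32 and -0.62 (adjusted p = 0.00665 and 0.000151), but with the length and GC trend removed neither passed (0.23 and -0.20, adjusted p = 0.0799 and 0.0859), Col12a1 with the opposite sign. Col8a2 did not pass (-0.11, adjusted p = 0.586, or 0.22 with the trend removed at adjusted p = 0.246), but did with an added 0.1 in place of 1 (-0.72, adjusted p = 0.039). In the authors' deposited table it is called lower too (log2 fold change -2.39, q = 0.0238). The lowest cardiomyocyte values of Col12a1 and Col8a2 correspond to an estimated 0.912 and 2.44 fragments, so their level there was near the limit of detection. Cardiomyocyte libraries held 97.1 to 161 FPKM of the 10 fibroblast markers, none at 0 in all 3, and the part of fibroblast transcripts in these collagen values was not tested.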

How the data were processed

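Poly-A RNA of 22 libraries was made into stranded Illumina libraries, per the labels' protocols. The authors deposited FPKM values, computed with Cufflinks 2.0.2 on mm10 per the submitters' processing notes. Neither an aligner, an annotation nor the use of strand in counting is given in the sources used here. A comparison table deposited by the authors holds their log2 fold changes and q-values; its control groups were matched to sedentary and sham by name, and its means lay closest to those groups. Confidence bounds in 44 columns were not used.

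For the tests here, limma 3.58.1 in R 4.3.3 (trend and robust, two-sided) was run on log2(FPKM + 1) of genes that reached 1 FPKM in 2 or more libraries: 9425 genes in the 19 fibroblast libraries, and 10371 genes in all 22. Calls were made at a Benjamini-Hochberg adjusted p under 0.05 over all genes. The code was tested on simulated data. Length and GC trends used splines with 4 degrees of freedom on GENCODE M21 transcripts, for 22970 genes with a length. Alternatives were another pseudocount, no filter, scaling to the same median, plain limma, each comparison's groups alone, each library left out, a replicate block and the authors' calls. Depth in fragments was estimated from the steps of 5090 genes with 1 transcript. RefSeq promoters matched 6 of the 8 genes; motifs were counted on both strands. Tables were handled with pandas 2.3.3 in Python 3.11.15. The members and the lists were chosen with earlier results of these data known. All 8 members could be named in every comparison; of each list, up to 4 called genes with the largest fold change could be named where the higher group had 5 FPKM or more, and for likeness the 3 genes with the highest r.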

Additional observations from a re-analysis of the deposited data

Results flagged for a closer look

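Col8a2 differed between TAC and swimming in its change over time. From 3 to 10 days of TAC it went from 0.397, 0.517 and 0.414 to 2.32, 2.55 and 5.16 FPKM, while from 4 to 10 days of swimming it went from 0.337, 0.192 and 0.229 to 0.212, 0.255 and 0.136 FPKM. The difference between the 2 changes, tested as an interaction in limma after the data had been seen, was -1.59 on log2(FPKM + 1) (SE 0.264, adjusted p = 0.00325), and -1.39 with the length and GC trend removed (adjusted p = 0.00923). This difference was called in 6.16% of all genes tested, or 5.81% with the trend removed. Col8a2 passed the filter only through MI and 10 days of TAC, and the interaction was not computed without the filter. It did not pass for the other 7 collagens (adjusted p from 0.157 to 0.675). The first time points differ, 3 days for TAC and 4 days for swimming, so the 2 changes do not span the same interval.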

How the results depend on the processing

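Each fold change of the 8 genes was recomputed under each alternative. It kept its direction and side of the threshold in 104 of 104 cases with plain limma, 102 of 104 with scaling to the same median, 101 of 104 with no filter, 98 of 104 with an added 0.1, 75 of 80 with 2 groups alone and 519 of 570 with a library left out. With the length and GC trend removed it did so in 85 of 104. There, 5 reversed: Col12a1 for 3 days of TAC (0.61), 4 days (0.71) and 10 days (0.49) of swimming and cardiomyocytes (0.23), and Col16a1 for 10 days of swimming (0.30). The cause was not tested. The count of genes called became 7 for 10 days of TAC, 5 for 3 days of TAC, 1 for 4 days and 2 for 10 days of swimming, where all calls were higher. The calls for swimming were of Col12a1 and Col16a1, each below 1 FPKM in both groups. With an added 0.1 the counts were 4, 5 and 2 for 3 days of TAC, 4 days and 10 days of swimming, and with no filter 2 for 3 days of TAC and 0 for 10 days of swimming. The authors' deposited table called 3 for 3 days of TAC, 1 higher and 2 lower, and 2 for 4 days of swimming, 1 in each direction. For 4 days of swimming against 3 days of TAC it called 2, and a fit of the 2 groups alone called 0, with 5 of the 8 genes tested.

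With a library left out the counts ran from 2 to 3 for 3 days of TAC, 0 to 3 and 0 to 1 for 4 and 10 days of swimming, 1 to 3 between TAC times, 0 to 2 for 4 days of swimming against 3 days of TAC, 3 to 5 for MI against TAC and 5 to 7 for MI against sham. The lowest counts came without either sham library or the first or second TAC library for 3 days of TAC, without the second swim library for 4 days of swimming, and without the first MI library for MI against TAC and against sham. For 10 days of TAC against sedentary the counts ran from 3 to 5, and for 10 days of swimming against 10 days of TAC from 4 to 5. Without either MI library Col12a1 was not tested, so counts for MI against any group, sedentary included, fell in part for that reason. Against sedentary the Col6a3 difference was 0.98 without the first MI library and 1.28 without the second. A group with 1 library left was assumed to vary like the others.

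With the replicate number as a block, 5 genes were called for MI against sedentary, Col6a3 being lost (1.03, adjusted p = 0.0502), and 7 for cardiomyocytes. For MI and sedentary the labels give only a number, and same-numbered libraries deviated with r of -0.168 and -0.357. Titles of cardiomyocyte and fibroblast libraries share a number or, for the third, a date. Those pairs deviated with r of 0.233, 0.314 and 0.065, each cardiomyocyte library correlating best with its own number, a hint that they may be paired. Depth is known only as an estimate, so no counting interval is given. Col8a2, Col12a1 and Col16a1 rest on low values outside MI and 10 days of TAC.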
